A study of Mus musculus with 20 samples.

Results

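Chromatin accessibility around 51 imprinted genes was examined in blood stem and progenitor cells that carried mutant Idh1 or Idh2 or lacked Tet2. A peak was counted as belonging to an imprinted gene when its centre lay inside that gene, or otherwise when that gene had the nearest boundary among protein-coding genes. By this rule 537 of 125343 peaks belonged to 49 of the 51 genes, and Mcts2 and Zim1 had none. The number of peaks per gene ran from 1 to 39 with a median of 7. A gene's name on a peak marks a neighbour and does not show that the peak regulates it.

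An imprinted gene is transcribed mainly from the copy inherited from one parent. The choice is carried by differentially methylated regions, where the copy from one parent is methylated and the other is not, often at the start of the gene or of a long noncoding RNA next to it. The protein ZFP57 with its partner TRIM28 binds a methylated hexamer, TGCCGC, and protects such methylation through the early embryo, and DNMT1 copies it at each cell division. TET2 oxidises methylated cytosine, and the mutant IDH enzymes make 2-hydroxyglutarate, which inhibits TET enzymes and other 2-oxoglutarate-dependent dioxygenases. Several imprinted genes, such as Cdkn1c, Dlk1, Igf2 and Grb10, are studied in blood stem cells as regulators of growth and dormancy.

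ATAC-seq, in which a transposase cuts and tags open DNA, had been done on bone marrow cells gated as lineage-negative, c-Kit-positive and Sca1-positive (LSK). The mice were 3 to 4 months old and of the strain C57Bl/6J. The 5 genotypes were controls of +/+;Vav-Cre (called WT here), mice with an Idh1LSL-R132H/+;Vav-Cre genotype, mice with one of the alleles of Idh2 (written as Idh2LSL-R140Q/+;Vav-Cre for R140Q, and as Idh2LSL-R172K/+;Vav-Cre for R172K), and lastly Tet2-/- mice. Each genotype had 4 libraries, and each library was a pool of 2 mice, so differences between single mice cannot be seen. In the Idh mice and the WT controls Cre is driven by Vav, which acts in blood cells, and the mutant allele is switched on there beside a normal copy. The Tet2-/- label names no Cre, so an effect of the transgene, which WT carries, and of the loss of Tet2 cannot be told apart. The counts do not separate the maternal from the paternal copy of any gene.

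Libraries held 10502052 to 27890340 counts in peaks, with the lowest in Idh2 R172K replicate 2. Peaks of the imprinted genes took 0.34 to 0.36% of the counts in every library. A peak within 1 kb of the start was found for 7 of 7 LSK marker genes (WT median 24.9 CPM, counts per 1000000 in the library). The same held for 1 of 4 T cell, 2 of 4 B cell, 3 of 5 mature myeloid, 2 of 4 erythroid and 2 of 4 stromal or endothelial marker genes. Of the 7 LSK start peaks 5 were raised (Kit, Cd34, Gata2, Mecom and Meis1) and 1 lowered (Flt3) in Idh2 R172K, and they summed to 248 to 282 CPM there, 235 to 252 in WT and 238 to 280 in Tet2-/-. The 3 myeloid start peaks were all lowered in Idh2 R172K, where they summed to 9.24 to 10.6 CPM against 12.8 to 14.6 in WT and 10.5 to 13.3 in Tet2-/-. The T cell peak was lowered too, 1 erythroid and 1 stromal or endothelial peak were raised, and neither B cell peak was called. The starts of Cd3e, Cd3d, Cd8a, Ms4a1, Cd79a, Ly6g, S100a9, Hba-a1, Hbb-bs, Cdh5 and Col1a1 had no peak. No marker start was called in Tet2-/-. The part that a different mix of cells plays in the results was not tested, and in such bulk samples fewer cells of a type and less open chromatin per cell cannot be told apart. The signal at Xist split the libraries into 3.87 to 4.89 CPM and 22.6 to 30.1 CPM, with 2 of 4 on each side in every genotype.

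Starts of transcripts at differentially methylated regions are where the allele-specific methylation of these loci is known to sit, so 4 of them are shown first, each with the 250 bases before the start. Plagl1 and Nap1l5 are given because their start peaks were raised and lowered in Idh2 R172K, Kcnq1ot1 because it is the noncoding RNA that controls the Kcnq1 cluster, and Zrsr1 because its open start was not called. Capitals mark the ZFP57 hexamer, read as TGCCGC or, on the other strand, GCGGCA. Sequences are from RefSeq, build GRCm38.p6, 5′ to 3′ along the gene.
Plagl1 (chr10:13090582-13090831, plus strand): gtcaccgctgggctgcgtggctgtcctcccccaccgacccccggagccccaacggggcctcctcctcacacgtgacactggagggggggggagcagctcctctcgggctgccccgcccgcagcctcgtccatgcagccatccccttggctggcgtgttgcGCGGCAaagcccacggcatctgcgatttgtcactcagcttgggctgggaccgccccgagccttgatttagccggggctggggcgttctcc
Nap1l5 (chr6:58907127-58907376, minus strand): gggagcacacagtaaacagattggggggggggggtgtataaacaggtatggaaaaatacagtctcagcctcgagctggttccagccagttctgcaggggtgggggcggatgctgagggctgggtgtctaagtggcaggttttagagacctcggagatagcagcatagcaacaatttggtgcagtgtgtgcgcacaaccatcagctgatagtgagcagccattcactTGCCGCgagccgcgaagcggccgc
Kcnq1ot1 (chr7:143296548-143296797, minus strand): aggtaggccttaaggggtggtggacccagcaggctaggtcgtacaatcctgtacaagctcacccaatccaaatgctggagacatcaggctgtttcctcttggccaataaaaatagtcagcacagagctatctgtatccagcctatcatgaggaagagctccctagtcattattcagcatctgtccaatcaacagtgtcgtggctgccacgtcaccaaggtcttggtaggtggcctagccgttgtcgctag
Zrsr1 (chr11:22971755-22972004, plus strand): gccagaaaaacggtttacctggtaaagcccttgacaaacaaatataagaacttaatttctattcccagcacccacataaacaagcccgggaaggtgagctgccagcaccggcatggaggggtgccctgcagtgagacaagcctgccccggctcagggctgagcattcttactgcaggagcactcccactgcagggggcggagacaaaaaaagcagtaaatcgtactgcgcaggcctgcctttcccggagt

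The Plagl1 stretch held 19 CpG dinucleotides and 1 hexamer, and the Nap1l5 stretch 10 and 1. Kcnq1ot1 had 5 CpG and Zrsr1 had 8, and neither stretch held the hexamer. All 250 bases lay inside the start peak for Plagl1, Kcnq1ot1 and Zrsr1, against 147 for Nap1l5. A promoter sequence was found for 42 of the 51 genes. The hexamer was present in 9 of their 61 promoter stretches (14.8%), in 6 of 20 (30%) of the transcripts starting at methylated regions, and in 2850 of 32851 (8.68%) of all promoters of this length. The median number of CpG dinucleotides was 12, 8 and 6 in these sets. A match is a description of the letters and says nothing of binding.

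The starts of Gab1 and Rasgrf1 are shown beside them, because their peaks moved in opposite directions in Idh2 R172K. Gab1 is a docking adaptor below growth factor receptors that is imprinted in mouse placenta. Rasgrf1 is a nucleotide exchange factor for Ras that is expressed from the paternal copy in mouse brain.
Gab1 (chr8:80880520-80880769, minus strand): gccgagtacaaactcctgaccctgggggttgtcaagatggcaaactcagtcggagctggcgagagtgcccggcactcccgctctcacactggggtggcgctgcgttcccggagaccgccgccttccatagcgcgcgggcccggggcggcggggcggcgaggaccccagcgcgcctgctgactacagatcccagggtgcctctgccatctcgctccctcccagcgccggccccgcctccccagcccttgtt
Rasgrf1 (chr9:89909525-89909774, plus strand): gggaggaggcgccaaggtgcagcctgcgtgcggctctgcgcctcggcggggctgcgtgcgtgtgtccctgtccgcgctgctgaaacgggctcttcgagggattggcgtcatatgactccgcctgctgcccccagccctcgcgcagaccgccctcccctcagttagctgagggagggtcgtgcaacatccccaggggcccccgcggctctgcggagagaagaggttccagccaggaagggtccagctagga

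Both stretches are rich in CpG, with 24 and 21 dinucleotides and a G and C content of 70.8% and 69.2%. Neither held the hexamer.

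The peaks of the imprinted genes resembled the peak set at large in width and level. Their median width was 536 bp against 514 bp for all peaks, and their median WT level was 2.69 against 2.58 CPM. Levels in WT ran from 0.14 to 144 CPM. Promoter-class peaks made up 9.68% (52 peaks) against 12.5%, intronic peaks 50.7% against 41.9% and intergenic peaks 28.5% against 36.0%. Of the 537 peaks, 532 passed the filter on low counts and were tested.

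The first comparison asked how the Idh2 R172K allele moved accessibility at these loci. Of the 532 tested peaks, 127 were raised and 171 lowered relative to WT at an adjusted p under 0.05 (edgeR quasi-likelihood test, Benjamini-Hochberg adjustment over all tested peaks). That is 23.9% raised and 32.1% lowered, against 25.1% and 27.9% of all tested peaks. Over both directions 56.0% of the members' peaks and 53.0% of all peaks were called, so the imprinted loci moved about as often as the rest of the accessible genome. The median log2 fold change was -0.04 over the tested peaks of the members and 0.01 over all tested peaks.

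Among called peaks, lowered ones had larger log2 changes than raised ones, at the imprinted genes and over all peaks. Log2 fold changes of raised peaks ran from 0.17 to 2.50 with a median of 0.55, and those of lowered peaks from -3.81 to -0.18 with a median of -0.92, where the medians over all called peaks were 0.50 and -0.96. A change of at least 2-fold was seen in 17 raised and 77 lowered peaks, or 3.20% and 14.5% of those tested, against 3.63% and 13.2% of all tested peaks. The 4 mutant libraries lay above all 4 WT libraries in 100 of the raised peaks and below them in 133 of the lowered ones. These were 18.8% and 25.0% of the tested peaks, against 18.9% and 22.5% of all tested peaks. Of the 49 genes with a peak, 40 had a raised peak, 35 a lowered peak and 30 had both. Ins2, Usp29, Zdbf2 and Zrsr1 had no called peak. The same counts were not made over all 17798 genes that name a peak, so they are not read as a trait of imprinted genes.

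Promoter-class peaks and the rest moved in different proportions, as they did genome-wide. Of 52 promoter-class peaks of imprinted genes, 20 were raised and 8 lowered (38.5% and 15.4%, against 39.8% and 15.0% of all promoter-class peaks). Outside promoters 107 of 480 were raised and 163 lowered (22.3% and 34.0%, against 23.0% and 29.8%). Genes were also listed by the copy they are mainly expressed from in some tissue, which need not hold in LSK cells. Raised and lowered peaks numbered 49 and 68 of 214 at the 26 paternally expressed genes with a tested peak. They numbered 78 and 103 of 318 at the 23 maternally expressed ones. These were 22.9% and 31.8%, and 24.5% and 32.4%, against 25.1% and 27.9% of all tested peaks.

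**Figure D1:**
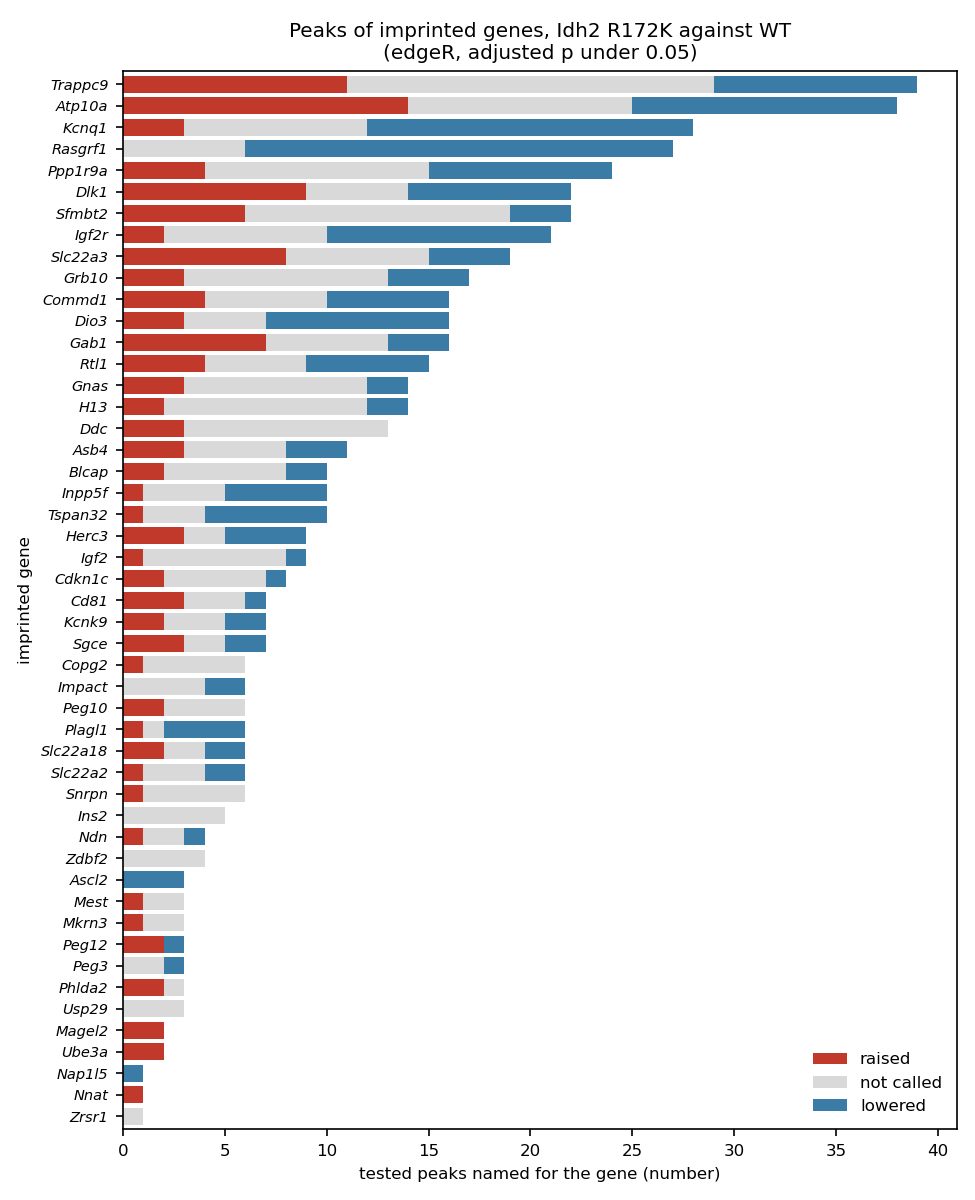
Numbers of tested peaks called raised, lowered (edgeR adjusted p under 0.05, n = 4 libraries per genotype) or not called, as stacked bars for each of the 49 imprinted genes with a peak, in Idh2 R172K against WT. A called peak was found in 45 genes, and Rasgrf1 had 21 lowered and no raised peak. Of all tested peaks 53.0% were called.

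By cluster, the shares of raised and lowered peaks varied around the 25.1% and 27.9% of all tested peaks. In the distal chromosome 7 cluster (Igf2, Ins2, Cdkn1c, Kcnq1, Phlda2, Slc22a18, Cd81, Ascl2 and Tspan32) 14 peaks were raised and 30 lowered of 79. The Igf2r cluster on chromosome 17 had 11 raised and 17 lowered of 46, and the Dlk1-Dio3 cluster on chromosome 12 had 16 and 23 of 53. In the Prader-Willi and Angelman cluster the balance ran the other way, with 23 raised and 15 lowered of 58. The Peg10 cluster had 12 and 14 of 48, the Grb10 and Ddc pair 6 and 4 of 30, and the Mest and Copg2 pair 2 and 0 of 9. The Peg3 cluster had 0 and 1 of 6, gene pairs in which one member lies inside or beside its host had 25 and 27 of 98, and the genes that stand alone 18 and 40 of 105. The Peg10 cluster (25.0% raised and 29.2% lowered) and the gene pairs with a host (25.5% and 27.6%) were near the shares of all tested peaks. Shares were 17.7% and 38.0% in the distal chromosome 7 cluster, 23.9% and 37.0% in the Igf2r cluster and 30.2% and 43.4% in the Dlk1-Dio3 cluster. They were 39.7% and 25.9% in the Prader-Willi and Angelman cluster. Differences in balance between clusters were not tested.

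At the starts of transcripts listed for differentially methylated regions, most peaks were not called in Idh2 R172K. Of 19 such transcripts 15 had a peak within 1 kb of the start, at 13 peaks that had 0.613 to 40.8 CPM in WT (median 5.75). Of the 13, 3 were raised and 1 was lowered, where 39.8% and 15.0% of all promoter-class peaks were. Log2 fold changes of the 13 ran from -0.70 to 0.98 with a median of 0.14. For Nnat, Impact, Mcts2 and Meg3 no peak was found within 1 kb. Impact had no promoter sequence, so its start was sought at the ends of the gene. As 1 of its 6 peaks was of the promoter class, a start peak may have been missed there.

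Plagl1, a zinc finger transcription factor expressed from the paternal copy, had a start peak of 6.52, 6.22, 5.06 and 5.21 CPM in WT and 9.50, 9.64, 7.36 and 9.18 CPM in Idh2 R172K. Every mutant library was above every WT library, and the peak was raised by 0.61 ± 0.11 on the log2 scale (SE, n = 4 per group, edgeR adjusted p = 9.77e-06). The peak shared by the starts of Peg10, a retrotransposon-derived gene, and Sgce, the epsilon sarcoglycan of the cell membrane (chr6:4746873-4747469), went from 8.27, 8.84, 6.70 and 9.52 CPM to 12.2, 13.4, 11.5 and 11.8 CPM. These groups did not overlap either (log2 0.53 ± 0.11, edgeR adjusted p = 8.81e-05).

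The start of Kcnq1ot1, the paternally expressed antisense RNA inside Kcnq1 (chr7:143295473-143296949), had 35.8, 38.1, 36.7 and 37.7 CPM in WT and 41.2, 38.3, 39.7 and 46.9 CPM in Idh2 R172K. The groups were apart by a small margin, the log2 change was 0.17 ± 0.07 (edgeR adjusted p = 0.039), and 7 of 16 alternative settings did not call it. Nap1l5, a paternally expressed relative of nucleosome assembly proteins that sits in an intron of Herc3, had 1.82, 2.33, 2.83 and 2.22 CPM in WT and 1.62, 1.27, 0.887 and 1.97 CPM in the mutant. The groups overlapped, and the peak was lowered (log2 -0.67 ± 0.20, edgeR adjusted p = 0.00464), a call that was lost without Idh2 R172K replicate 3.

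The other starts were not called. Mest, a hydrolase-like gene, had 2.90 ± 0.666 CPM in WT and 3.41 ± 0.405 in the mutant (SD, n = 4). The start shared by Peg3, a zinc finger gene, and Usp29 had 8.39 ± 1.76 and 9.49 ± 1.23 CPM. Grb10, an adaptor that restrains insulin signalling, had 5.29 ± 0.642 and 5.32 ± 0.497 CPM. In these 3 pairs the means differed by less than the SD of the WT libraries. The Grb10 peak (chr11:12037070-12038424) lies at the annotated start of the gene. Whether it lies in the methylated region of Grb10 was not examined. Zrsr1, a splicing factor relative inside Commd1, had 20.1 ± 1.08 and 19.2 ± 1.04 CPM. Airn, the antisense RNA of Igf2r, had 8.94 ± 0.457 and 7.77 ± 1.28 CPM (log2 -0.22, edgeR adjusted p = 0.0726). Peg13, a noncoding RNA in Trappc9, had 40.8 ± 1.13 and 40.5 ± 0.989 CPM. The peaks nearest the starts of Snrpn and H19 had few counts, at 0.613 ± 0.254 and 1.12 ± 0.201 CPM in WT and 0.336 ± 0.0946 and 1.17 ± 0.361 CPM in Idh2 R172K. The Snrpn one is an intronic peak of 281 bp that lies 810 bp from the start and does not cover it.

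**Figure D2:**
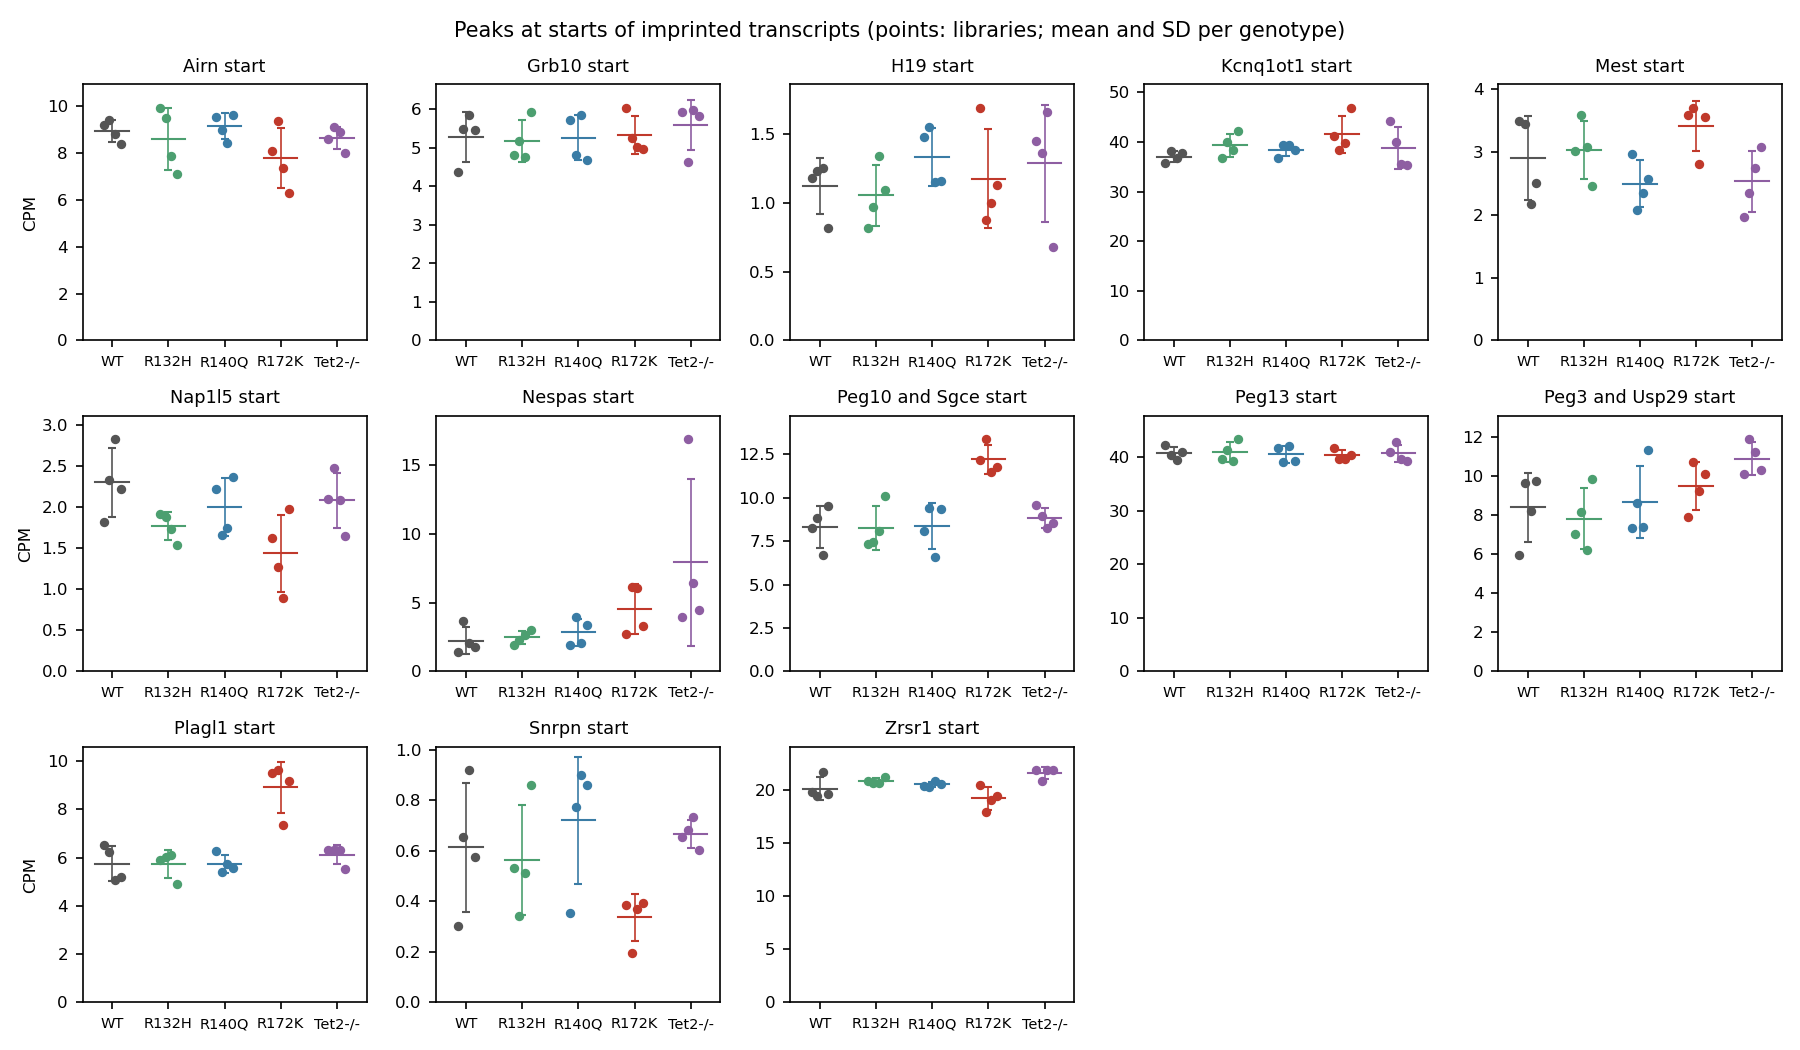
Accessibility in CPM of the 13 peaks nearest the starts of transcripts listed for differentially methylated regions. Each library is 1 point, a line marks the mean of the 4 libraries with its SD as the bar, and each peak has 1 panel over the 5 genotypes. Plagl1 and the shared Peg10 and Sgce start stand higher in Idh2 R172K than in WT, and the Nespas start reaches 16.9 CPM in 1 Tet2-/- library.

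The start of Nespas, an antisense RNA at the Gnas locus, had the widest spread in CPM within a genotype of the 13. Gnas encodes the alpha subunit of the stimulatory G protein, and the germline methylated region of the locus covers this start. The peak (chr2:174295199-174296070) had 1.44, 3.64, 2.10 and 1.76 CPM in WT and 3.92, 16.9, 6.41 and 4.43 CPM in Tet2-/-. Every Tet2-/- library was above every WT library, but the spread was wide (2.24 ± 0.974 against 7.90 ± 6.06 CPM), and the log2 change of 1.79 was not called (edgeR adjusted p = 0.0555). Without Tet2-/- replicate 2 the log2 change was 1.14 with an edgeR adjusted p of 0.0984, and 4 of the 16 alternative settings called the peak, with DESeq2 at an adjusted p of 0.0062. The adjusted p over all alternatives ran from 0.00568 to 0.243. In Idh2 R172K it had 2.73, 6.14, 6.03 and 3.27 CPM (log2 0.98 ± 0.52, edgeR adjusted p = 0.128). In Idh1 R132H it had 1.95 to 2.99 CPM and in Idh2 R140Q 1.91 to 3.92 CPM, within or close to the WT range.

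No start at a methylated region was called in Tet2-/-, where 3.1% of all tested peaks were. Of the 13, 2 had an unadjusted p under 0.05 and DESeq2 called 1, the Nespas start. The Xist covariate also gave 1 call (Peg3 and Usp29), and the replicate block gave 2 (both of these starts). Their log2 changes ran from -0.21 to 1.79 with a median of 0.07. The second highest log2 change, after Nespas, was at the start of Peg3 and Usp29, with 10.1, 11.9, 11.2 and 10.3 CPM against 5.96, 9.66, 8.21 and 9.72 CPM in WT. All 4 Tet2-/- libraries were above all WT libraries there, with a log2 change of 0.37 ± 0.15 (edgeR adjusted p = 0.216). Neither Idh1 R132H nor Idh2 R140Q had a call or an unadjusted p under 0.05 at any of the 13, by edgeR, and DESeq2 called none.

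Over all imprinted genes with a start peak (41 genes, 38 peaks), 17 peaks were raised and 5 lowered in Idh2 R172K, where 39.8% and 15.0% of all promoter-class peaks were, and cyclic loess scaling called 13 raised and 5 lowered. Cdkn1c, the cyclin-dependent kinase inhibitor p57, went from 26.4 to 34.2 CPM (log2 0.38), and Phlda2, a growth-restraining gene of the placenta, from 12.6 to 16.2 CPM (log2 0.37). Dlk1, a membrane protein related to Notch ligands, went from 4.08 to 5.94 CPM (log2 0.54), and Ube3a, the ubiquitin ligase of Angelman syndrome, from 90.7 to 108 CPM (log2 0.25, edgeR adjusted p = 0.00568). Ascl2, a basic helix-loop-helix factor, was among the lowered starts, from 18.9 to 15.5 CPM (log2 -0.29). These 5 were chosen after their values were seen.

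Of the first 10 lowered peaks by p, 1 was of the promoter class. The first lowered peak was named for Atp10a, a phospholipid-transporting ATPase, and lay 6985 bp past the gene (chr7:58836741-58837718) in an exon of a transcript that the annotation lists by an identifier alone. It had 27.1, 26.4, 26.2 and 25.8 CPM in WT and 1.58, 2.24, 1.74 and 2.25 CPM in Idh2 R172K. The groups were far apart, with a log2 change of -3.81 ± 0.12 (edgeR adjusted p = 1.26e-25). The level in Tet2-/- was 23.4 ± 3.42 CPM (n = 4).

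Igf2r, the receptor that binds and clears insulin-like growth factor 2, held the second (chr17:12722573-12723213, intron). It had 8.38, 8.18, 6.83 and 7.22 CPM in WT and 0.923, 1.17, 1.44 and 0.845 CPM in the mutant, with no overlap (log2 -2.79 ± 0.15, edgeR adjusted p = 2.29e-19). A peak 50131 bp upstream of Dlk1 (chr12:109402109-109402600) had 2.05, 2.33, 2.43 and 2.79 CPM in WT and 0.269, 0.39, 0.333 and 0.282 CPM in Idh2 R172K (log2 -2.93 ± 0.23, edgeR adjusted p = 4.82e-14). The same peak had 3.64, 3.41, 4.06 and 3.57 CPM in Tet2-/-, above every WT library, and was raised there (log2 0.62 ± 0.14, edgeR adjusted p = 0.00634). The direct comparison of Idh2 R172K with Tet2-/- gave a log2 difference of -3.55 at this peak.

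The other 7 of the first 10 lowered peaks fell by 1.26 to 2.97 on the log2 scale. They were 2 more of Atp10a (chr7:58626477-58627277, 6.48 to 0.795 CPM, and chr7:58749823-58750515, 12.7 to 4.91 CPM) and 1 intergenic peak named for Asb4, an ankyrin repeat protein (chr6:5361865-5362482, 7.76 to 2.22 CPM). An intron of Impact, which restrains the translation kinase GCN2, had 4.29 ± 0.465 CPM in WT and 0.729 ± 0.231 in the mutant (chr18:12989214-12990073). An intron of Trappc9, a vesicle tethering subunit, had 5.10 and 1.75 CPM (chr15:73017483-73018184), and an intron of Kcnq1, a potassium channel, had 5.68 and 2.34 CPM (chr7:143399166-143400567). The remaining peak was of the promoter class, in Herc3, a HECT-family ubiquitin ligase (chr6:58832615-58833350, 8.76 to 3.63 CPM, edgeR adjusted p = 2.66e-11).

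Among the raised peaks, the start of Gab1 combined a high level with a change in every library. It had 47.1, 41.9, 39.4 and 40.6 CPM in WT and 64.3, 59.4, 61.0 and 63.1 CPM in Idh2 R172K (chr8:80879492-80880980). The groups did not overlap (log2 0.55 ± 0.06, edgeR adjusted p = 1.26e-09). An intron of Sfmbt2, a Polycomb-group gene imprinted in mouse placenta, had 0.379, 0.205, 0.394 and 0.451 CPM in WT and 1.42, 1.27, 2.37 and 2.87 CPM in the mutant (chr2:10559523-10559853). From this low level it had the largest log2 change of the 127 raised peaks, 2.50 ± 0.30 (edgeR adjusted p = 3.5e-09).

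The other 8 of the first 10 raised peaks gained 0.58 to 1.17 on the log2 scale. Atp10a held 2 of them, in introns (chr7:58741903-58742443, 3.83 to 8.54 CPM, and chr7:58736688-58737436, 9.21 to 15.2 CPM), so it had peaks in both sets. Slc22a3, an organic cation transporter, had 9.80 ± 1.54 and 21.2 ± 4.15 CPM in an intron (chr17:12427070-12427836). A second peak of Slc22a3, 5899 bp outside the gene, had 13.8 ± 0.867 and 21.9 ± 0.878 CPM. Ddc, which makes dopamine and serotonin from their precursors, had 11.4 and 22.7 CPM at a promoter-class peak (chr11:11836420-11837417), and Commd1, a copper-handling gene, 4.24 and 9.64 CPM at another (chr11:22956803-22957326). A peak named for Cd81, a tetraspanin, that lay outside the gene (chr7:143042718-143043491) went from 6.65 to 12.3 CPM. One named for Dio3, the deiodinase that inactivates thyroid hormone, went from 20.9 to 31.1 CPM at a distance of 307496 bp. All 20 of these peaks kept their call in all 16 alternative settings.

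**Figure D3:**
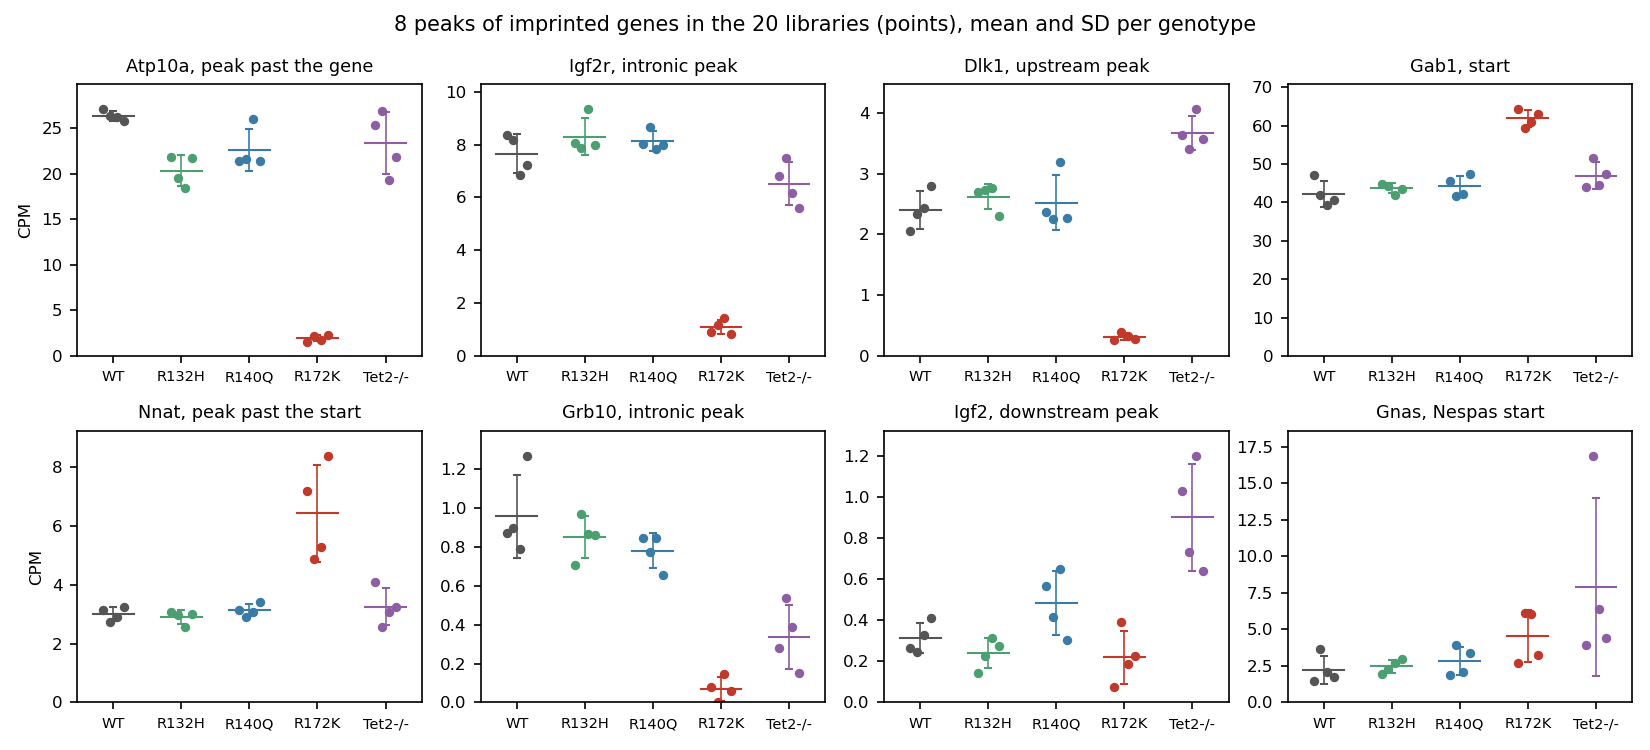
Accessibility in CPM of peaks named for imprinted genes, with 1 point per library, a line at the mean of the 4 libraries with its SD as the bar, and 1 panel for each of 8 peaks over the 5 genotypes. In Idh2 R172K the Atp10a peak past the gene falls to between 1.58 and 2.25 CPM in all 4 libraries, while the Gab1 start stands at 59.4 to 64.3 CPM.

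A pair of smaller loci is added outside that order, chosen after their values were seen. Nnat, a brain proteolipid expressed from the paternal copy within an intron of Blcap, had a single peak, 1007 bp past its start (chr2:157561231-157561650). It had 3.15, 2.74, 2.89 and 3.24 CPM in WT and 7.19, 4.87, 5.29 and 8.39 CPM in Idh2 R172K, with no overlap (log2 1.11 ± 0.14, edgeR adjusted p = 1.51e-08). Mest had a second peak beside its start (chr6:30736820-30737646) with 6.30, 6.18, 6.18 and 5.17 CPM in WT and 9.66, 9.06, 9.39 and 9.74 CPM in the mutant. It was raised by 0.67 ± 0.09 on the log2 scale (edgeR adjusted p = 1e-07), while the start peak of Mest itself was not called. At Impact, a pair of peaks had 12.5 and 144 CPM in WT and 14.4 and 168 CPM in the mutant. Neither was called (edgeR adjusted p = 0.0695 and 0.0606), and 1 of the 6 Impact peaks was of the promoter class.

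Rasgrf1 was lowered along most of its length, and it was picked out after the values were seen. Of its 27 tested peaks 21 were lowered in Idh2 R172K (77.8%) and none was raised, where 27.9% and 25.1% of all tested peaks were. Inside the gene 12 of 14 were lowered, and all 14 log2 changes were below 0, from -2.32 to -0.33 with a median of -1.16. Outside the gene 9 of 13 were lowered, with log2 changes from -1.58 to 0.02 and a median of -0.63.

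The lowest log2 change at Rasgrf1 was in an intron (chr9:89988694-89989430), at 2.05, 3.44, 2.63 and 2.42 CPM in WT and 0.308, 0.877, 0.518 and 0.619 CPM in the mutant. The peak over its start had 12.4, 10.7, 10.6 and 12.4 CPM in WT and 8.54, 7.60, 9.20 and 8.33 CPM in Idh2 R172K, without overlap (log2 -0.44, edgeR adjusted p = 1.35e-04). The exception was a peak 29697 bp upstream of the gene (chr9:89879504-89880118), at 4.39 ± 0.195 CPM in WT and 4.47 ± 0.222 in the mutant (log2 0.02, edgeR adjusted p = 0.887). A paternally methylated region upstream of Rasgrf1 is known to control its imprinting in mouse, and whether this peak lies in it was not examined. None of the 27 peaks was called in Tet2-/-, where 3.1% of all tested peaks were.

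**Figure D4:**
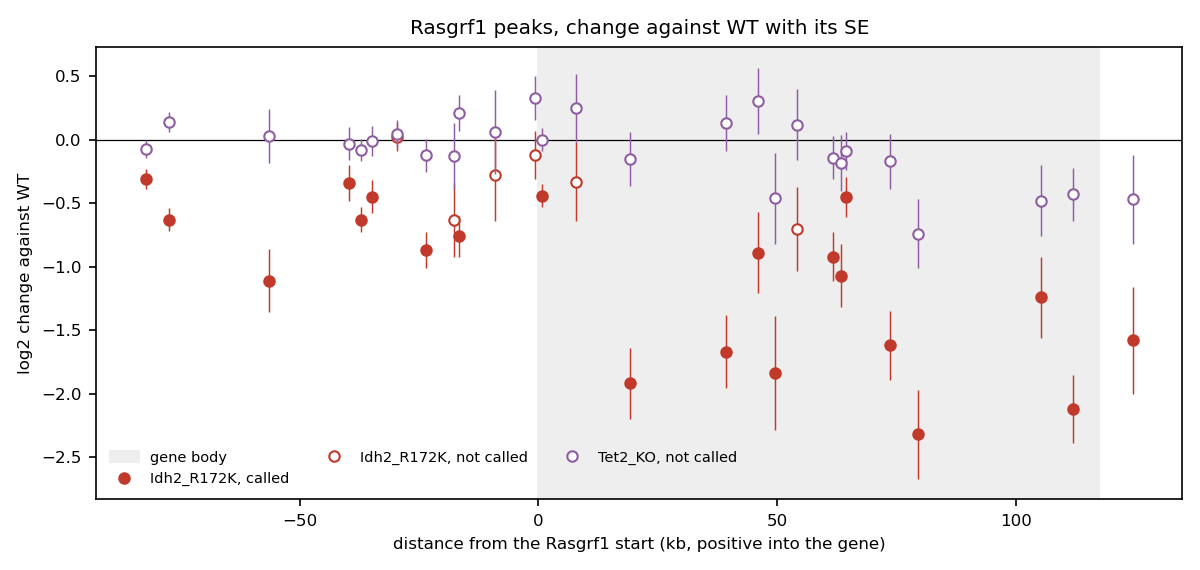
Log2 fold change against WT of each of the 27 tested Rasgrf1 peaks, plotted by distance from the start of the gene in kb, for Idh2 R172K and Tet2-/-, with error bars of 1 SE (n = 4 libraries per genotype). In Idh2 R172K all 14 peaks inside the gene lie below 0, and the peak 29697 bp upstream lies at 0.02.

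Kcnq1 and Igf2r had more lowered than raised peaks, with 16 and 3 of 28 at Kcnq1 and 11 and 2 of 21 at Igf2r. These were 57.1% and 10.7%, and 52.4% and 9.52%, against 27.9% lowered and 25.1% raised of all tested peaks. In Kcnq1 15 of 26 peaks inside the gene were lowered and 2 raised, and both of its most lowered peaks lay in introns. The first (chr7:143364019-143364764) had 3.72, 3.64, 4.40 and 3.61 CPM in WT and 0.692, 0.487, 0.739 and 0.845 CPM in Idh2 R172K, with no overlap (log2 -2.41 ± 0.24, edgeR adjusted p = 6.13e-10). The second (chr7:143389312-143390801) had 15.7 ± 1.21 and 4.24 ± 1.33 CPM (log2 -1.80). Inside Igf2r 7 of 15 peaks were lowered and 1 raised.

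Other loci were mixed, where 25.1% of all tested peaks were raised and 27.9% lowered. Inside Atp10a 11 of 26 peaks were raised and 10 lowered, and inside Trappc9 11 and 10 of 38. At Dlk1 the start was raised, and of the 19 peaks outside the gene 7 were raised, among them those 2256, 6105 and 11008 bp upstream, and 7 were lowered, among them the one 50131 bp away. All 16 tested peaks of Dio3 lay outside the gene, and 9 were lowered and 3 raised. At Plagl1 1 of 6 peaks, the start, was raised and 4 were lowered, and a lowered peak outside the gene (chr10:13062234-13062718) went from 2.10 to 0.276 CPM (log2 -2.87). Magel2, a Prader-Willi gene of the ubiquitin ligase machinery, and Ube3a each had 2 tested peaks, and all were raised.

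Further genes were divided as follows in Idh2 R172K, with raised and lowered peaks given against all peaks of the gene. Beside these counts, 25.1% of all tested peaks were raised and 27.9% lowered. Tspan32, a tetraspanin, had 1 raised and 6 lowered of 10 peaks, Inpp5f, an inositol phosphatase, 1 and 5 of 10, and Ppp1r9a 4 and 9 of 24. Raised peaks were more frequent at Ddc (3 and 0 of 13), Sfmbt2 (6 and 3 of 22) and Peg10 (2 and 0 of 6). Sgce had 3 raised and 2 lowered of 7 peaks, Gnas 3 and 2 of 14, Peg12 2 and 1 of 3, and Slc22a2, an organic cation transporter, 1 and 2 of 6. The numbers of raised and lowered peaks were equal at Igf2, Ndn, Slc22a18, Blcap, Kcnk9 and H13. Copg2, Mkrn3 and Snrpn each had 1 raised and no lowered peak, Peg3 had 1 lowered and no raised peak, and Impact had 2 lowered and no raised peak.

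Counts summed over all peaks of a gene gave the net change of each locus. In Idh2 R172K 11 of 49 gene sums were raised and 12 lowered, where 23.4% and 25.2% of all gene sums were. Rasgrf1 went from 118 to 71.8 CPM (log2 -0.72 ± 0.04, edgeR adjusted p = 7.56e-14), the lowest p of the 49. Igf2r went from 165 to 126 CPM (log2 -0.40), Kcnq1 from 196 to 160 CPM (log2 -0.29) and Ascl2 from 23.5 to 16.9 CPM (log2 -0.49). These sums did not overlap between WT and mutant libraries at Rasgrf1, Igf2r, Kcnq1 and Ascl2.

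Gene sums that were raised included Nnat, from 3.06 to 6.15 CPM (log2 1.02), and Magel2, from 2.59 to 3.84 CPM (log2 0.61). Mest went from 11.9 to 15.0 CPM (log2 0.34), Ddc from 62.4 to 76.9 CPM (log2 0.30), Slc22a3 from 86.0 to 104 CPM (log2 0.28) and Gab1 from 85.5 to 103 CPM (log2 0.27). In these 6 genes every Idh2 R172K library was above every WT library. Within the same region of chromosome 17, Igf2r was thus lowered and Slc22a3 raised. Gene sums are scaled on their own, and in the 3 genes with a single peak this put the log2 change below that of the peak, at -0.76 against -0.67 for Nap1l5, 1.02 against 1.11 for Nnat and -0.14 against -0.05 for Zrsr1. Zrsr1 was lowered as a sum (edgeR adjusted p = 0.0381) and not as a peak (0.481).

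Loss of Tet2 moved far fewer peaks. Of the 532 tested peaks 9 were raised and 13 lowered in Tet2-/- against WT (edgeR adjusted p under 0.05), and 89 had an unadjusted p under 0.05. The shares were 1.69% and 2.44%, against 0.785% and 2.32% of all tested peaks, or 4.14% against 3.1% over both directions. The calls fell in 14 genes, and no gene sum was called (6 had an unadjusted p under 0.05, the lowest edgeR adjusted p was 0.113, DESeq2 called none, and 1.51% of all gene sums were called). The number of raised peaks was 5 with DESeq2 and 3 without WT replicate 1, WT replicate 2 or Tet2-/- replicate 3, and 5 without Tet2-/- replicate 1. The number of lowered peaks was 5 without Tet2-/- replicate 1, 7 without WT replicate 1 and 8 without Tet2-/- replicate 3.

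The raised peaks included 2 of Dlk1 and 1 of Igf2, both paternally expressed. The first, past the end of Dlk1 at chr12:109494548-109495369, had 2.92, 2.50, 2.43 and 2.95 CPM in WT and 4.29, 3.95, 4.52 and 4.13 CPM in Tet2-/- (log2 0.63 ± 0.13, edgeR adjusted p = 0.00189). The second Dlk1 peak was the one 50131 bp upstream described above. At Igf2, which encodes insulin-like growth factor 2, a peak 3880 bp downstream (chr7:142646731-142647045) had 0.266, 0.246, 0.329 and 0.41 CPM in WT and 1.03, 0.731, 1.20 and 0.639 CPM in Tet2-/- (log2 1.52 ± 0.33, edgeR adjusted p = 0.00474). In all 3 peaks every Tet2-/- library was above every WT library, and none lost its call in the 16 alternative settings.

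The other 6 raised peaks had edgeR adjusted p values from 0.0274 to 0.0489, and each lost its call in 5 to 9 of 16 alternative settings. Ndn, the Prader-Willi gene necdin, had 0.527 ± 0.281 CPM in WT and 1.11 ± 0.234 in Tet2-/- at a peak 116920 bp away. Zdbf2, a zinc finger gene of paternal expression, had 2.01 ± 0.167 and 2.95 ± 0.209 CPM. A promoter-class peak of Ppp1r9a, the actin-binding protein neurabin, had 16.1 ± 0.914 and 19.4 ± 0.736 CPM. A peak 145604 bp from Rtl1, a retrotransposon-like gene of the placenta, had 5.21 ± 0.271 and 7.14 ± 0.271 CPM. The peaks of Grb10 (5.97 and 7.67 CPM) and Sgce (2.71 and 3.72 CPM) moved by 0.38 and 0.49 on the log2 scale.

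The first of the 13 lowered peaks by p was one of Grb10 (chr11:12010128-12010364), at 0.872, 0.9, 0.788 and 1.27 CPM in WT and 0.28, 0.536, 0.386 and 0.15 CPM in Tet2-/- (log2 -1.54 ± 0.31, edgeR adjusted p = 0.00171). In Idh2 R172K the same peak had 0.0769, 0, 0.148 and 0.0563 CPM. Both mutant groups were below every WT library. An intron of Slc22a3 (chr17:12499422-12499913) went from 3.49, 3.31, 3.29 and 4.02 CPM to 2.43, 2.39, 1.62 and 2.14 CPM in Tet2-/- (log2 -0.74, edgeR adjusted p = 0.00282).

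Ppp1r9a had 2 lowered introns. The first (chr6:4972812-4973747) went from 7.56 ± 0.567 to 5.26 ± 0.698 CPM (log2 -0.52, edgeR adjusted p = 0.00336), and the second (chr6:4977544-4977776) from 1.74 ± 0.138 to 0.913 ± 0.0415 CPM (log2 -0.94, edgeR adjusted p = 0.00752). These 4 lowered peaks kept their call in all 16 alternative settings. Herc3 also had 2 lowered peaks, from 1.82 to 1.01 CPM and from 1.34 to 0.592 CPM, and each lost its call in 3 of the 16 settings. Single peaks of Igf2r (2.79 to 1.65 CPM), Commd1 (5.96 to 4.28 CPM), Dlk1 (2.21 to 1.20 CPM) and Trappc9 (3.18 to 2.10 CPM) had edgeR adjusted p values from 0.0144 to 0.0197, and each lost its call in 2 to 5 of the 16 settings. The remaining 3 lowered peaks were named for Sgce, Gab1 and Grb10.

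**Figure D5:**
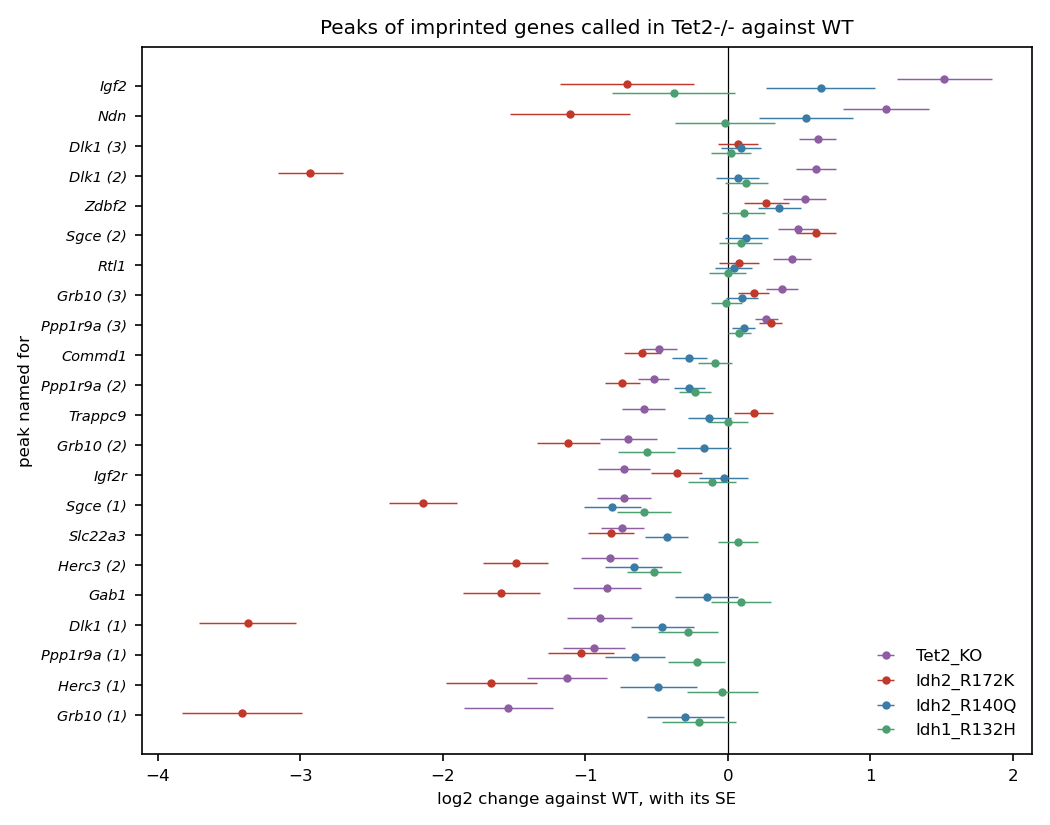
Log2 fold change against WT of the 22 peaks of imprinted genes called in Tet2-/-, shown for all 4 mutant genotypes with error bars of 1 SE (n = 4 libraries per genotype, the same WT libraries throughout). The 9 raised and 13 lowered peaks have Tet2-/- log2 changes from 0.27 to 1.52 and from -1.54 to -0.48.

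Genes listed as paternally expressed in some tissue held 7 raised and 3 lowered of 214 tested peaks in Tet2-/- (3.27% and 1.4%). Those listed as maternally expressed held 2 raised and 10 lowered of 318 (0.629% and 3.14%). Of all tested peaks 0.785% were raised and 2.32% lowered. As given above, most of the raised calls were lost in some alternative settings. The difference between these lists was not tested.

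Values of the peaks called in Tet2-/- are set beside those of Idh2 R172K with the reminder that both comparisons use the same WT libraries. A peak of Dlk1 61299 bp outside the gene, for example, had 2.21 ± 0.296 CPM in WT, 1.20 ± 0.244 in Tet2-/- and 0.203 ± 0.103 in Idh2 R172K. The Ndn peak had 0.527 ± 0.281 CPM in WT, 1.11 ± 0.234 in Tet2-/- and 0.222 ± 0.102 in Idh2 R172K.

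Compared directly, Idh2 R172K was higher than Tet2-/- at 94 and lower at 152 of the 532 peaks (17.7% and 28.6%, against 20.1% and 24.1% of all tested peaks, or 46.2% against 44.3% over both directions). Log2 differences ran from 0.19 to 2.21 for the former and from -3.63 to -0.16 for the latter. The lowest was at the Atp10a peak past the gene. At the starts over methylated regions 3 of the 13 were higher and 3 lower in Idh2 R172K than in Tet2-/-.

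The Idh1 R132H and Idh2 R140Q alleles had no called peak at any imprinted gene in the main fit, which did not pair libraries by replicate number. Unadjusted p values under 0.05 were found for 29 and 31 of the 532 peaks, and DESeq2 called none in either. Of all tested peaks 0.0274% and 0.0153% were called in these comparisons. The lowest adjusted p in Idh1 R132H was at the Atp10a peak past the gene, which had 21.8, 19.5, 18.4 and 21.7 CPM, below every WT library (log2 -0.37 ± 0.08, edgeR adjusted p = 0.101). With the replicate number as a block, which pairs these libraries with WT, the edgeR adjusted p was 0.0431 and this was the single lowered peak. Over all alternative settings its adjusted p ran from 0.00685 to 0.53.

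In Idh2 R140Q the same Atp10a peak had 21.4, 21.6, 26.0 and 21.4 CPM, overlapping WT (edgeR adjusted p = 0.803). The lowest adjusted p in Idh2 R140Q was at a peak named for Snrpn, a splicing gene of the Prader-Willi region (chr7:60728263-60728554). This peak lay outside the gene, whose upper boundary is at position 60450177. It had 0.683, 0.737, 0.986 and 1.23 CPM in WT and 0.141, 0.178, 0.200 and 0.504 CPM in Idh2 R140Q, apart but not called (edgeR adjusted p = 0.228).

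Peaks of 20 genes that set, keep or erase imprints (DNA methyltransferases, TET enzymes, zinc finger and Polycomb proteins and their partners) were read for comparison. Of 148 tested, 39 were raised and 31 lowered in Idh2 R172K and 1 and 2 in Tet2-/-, and Trim28 had no peak. The shares were 26.4% and 20.9% in Idh2 R172K, against 25.1% and 27.9% of all tested peaks, and 2.03% over both directions in Tet2-/-, against 3.1%. An intron of Dnmt3a, a de novo methyltransferase, had 4.21 ± 0.348 CPM in WT and 1.28 ± 0.288 in Idh2 R172K (log2 -1.67 ± 0.16, edgeR adjusted p = 1.68e-11), against 3.91 ± 0.381 in Tet2-/-. A peak named for Tet2 that lay 78334 bp outside the gene was raised in Idh2 R172K, from 17.5 ± 0.782 to 30.6 ± 2.63 CPM, and had 16.0 ± 0.672 CPM in Tet2-/-.

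A peak named for Eed, a Polycomb subunit, 58746 bp outside the gene, was lowered in both. It had 1.55 ± 0.299 CPM in WT, 0.278 ± 0.0963 in Tet2-/- (log2 -2.43 ± 0.31, edgeR adjusted p = 1.95e-06) and 0.0988 ± 0.0856 in Idh2 R172K (log2 -3.61). A promoter-class peak of Dnmt3l, the cofactor that sets imprints in germ cells, was lowered from 2.60 ± 0.52 to 1.47 ± 0.226 CPM in Tet2-/- (edgeR adjusted p = 0.0101). An intron of Arid4a was raised there from 6.11 ± 0.542 to 8.10 ± 1.07 CPM (edgeR adjusted p = 0.0206). The Dnmt3l call was lost without WT replicate 2, and the Arid4a call without Tet2-/- replicate 1 or 3 or WT replicate 1 or 4.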

How the data were processed

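Accessibility was measured by ATAC-seq in 20 libraries of LSK cells. Per the submitters' processing notes the build was mm10, and the tools were featureCounts, MACS2, SAMtools, Picard, BWA and Trim Galore. Tool versions, order and settings, and any shift of reads to the transposase site, were not given in the sources used here. Raw counts per peak were deposited by the authors for one peak set shared by all libraries, with an annotation of these peaks. Columns whose header joins Idh1 with R140Q were read as Idh2 R140Q. The annotation held no symbols, which the design had expected, so 21900 protein-coding genes in RefSeq (GRCm38.p6, the assembly behind mm10) were used, of which 17798 were the name of a peak. A peak in overlapping genes took the shortest.

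Counts were fitted with edgeR 4.0.16 (R 4.3.3), using TMM scaling, edgeR's own filter on low counts (grouped by genotype) and a robust quasi-likelihood model in which each genotype has its own mean. Benjamini-Hochberg adjustment ran over the 123908 peaks tested (1435 were removed), and the common biological coefficient of variation was 7.73%. Tests are 2-sided with a threshold of 0.05. CPM use TMM-scaled library sizes and are not scaled for peak width, so levels are compared between samples and not between peaks. Errors are SD over 4 libraries. Log2 changes carry an SE worked back from the log2 change and the F statistic of its test, which is approximate at low counts. Gene sums were fitted the same way. The alternatives were DESeq2 1.42.0, other scalings, no filter, a replicate block, the compared groups alone, the Xist signal as a covariate, each library left out, and peaks within 10 kb. Python 3.11.15 made tables and figures.

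Named peaks were the first 10 per direction by p in Idh2 R172K, up to 10 per direction in the other comparisons with WT, the peak nearest each start at a methylated region, the lowest adjusted p where no peak was called, and up to 3 peaks of the regulators. The members and the lists (parental expression, clusters, starts at methylated regions, imprint regulators, cell markers) were chosen with earlier results of these data known. Replicate numbers come from the sample labels. Deviations of same-numbered libraries correlated at 0.102 to 0.232 between Idh1 R132H and WT and 0.115 to 0.275 between Idh2 R140Q and WT. There each library correlated best with the WT library of its own number, so these were taken as paired, though not in the main fit. In the other comparisons some libraries correlated best with another number. In WT and the Idh genotypes replicates 1 and 3 had the low Xist signal and 2 and 4 the high one. In Tet2-/- replicates 1 and 2 had the low one. The part that this shared Xist signal plays in the correlations was not tested.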

Additional observations from a re-analysis of the deposited data

Results flagged for a closer look

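Among the 56 named peaks, 23 of 280 sets of 4 libraries had 1 library far from the other 3 (judged by its gap to the nearest, as a share of the range, at the 95% level of Dixon's test), where chance gives about 5%, or 1 in 20. In Idh2 R172K these were replicate 4 at the raised Commd1 peak (11.7 CPM, others 8.81 to 9.06) and replicate 2 at the peak nearest the Snrpn start, which is named for Snurf (0.195, others 0.37 to 0.394).

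In Tet2-/- replicate 2 stood apart at 6 peaks. It was low at an intron of Kcnq1 (5.02 CPM, others 6.27 to 6.49), at the lowered intron of Igf2r (0.731, others 1.92 to 2.01), at the start of Grb10 (4.63, others 5.82 to 5.99) and at Zrsr1 (20.8, others 21.9). It was high at an intron of Dnmt3a (4.48, others 3.71 to 3.73) and at the second Ppp1r9a intron (0.974, others 0.887 to 0.901). Replicate 3 was low at the Slc22a3 peak outside the gene (13 CPM, others 14.7 to 15.0) and high at 1 Herc3 peak (0.888, others 0.467 to 0.526). Replicate 1 was high at the raised Grb10 peak (9.01, others 7.21 to 7.26), and replicate 4 low at the Plagl1 start (5.52, others 6.30 to 6.33).

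In Idh1 R132H replicate 3 was high at the Igf2r intron that is lowered in Idh2 R172K (9.34 CPM, others 7.86 to 8.05). Replicate 4 was low at the upstream Dlk1 peak (2.31, others 2.69 to 2.76), high at the Rtl1 peak (7.11, others 4.53 to 4.68) and low at the Plagl1 start (4.89, others 5.92 to 6.11).

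In Idh2 R140Q replicate 3 was high at the Atp10a peak past the gene (26.0 CPM, others 21.4 to 21.6) and at the upstream Dlk1 peak (3.19, others 2.26 to 2.36). Replicate 1 was low at the Ndn peak (0.459, others 0.848 to 0.908), replicate 4 low at the first Ppp1r9a intron (5.35, others 6.48 to 6.54), and replicate 2 high at the Commd1 peak lowered in Tet2-/- (6.42, others 4.48 to 4.64). In WT replicate 3 was high at Zrsr1 (21.7 CPM, others 19.4 to 19.8), and replicate 4 low at the H19 start, whose peak is named for Mrpl23 (0.82, others 1.18 to 1.25).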

How the results depend on the processing

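In Idh2 R172K 106 peaks were raised and 193 lowered with library size alone and 138 and 148 with cyclic loess, and over all tested peaks 23277 and 38486, and 32279 and 31350. Promoter-class peaks raised numbered 15 under either scaling. Without 1 library, raised peaks numbered 112 to 124 and lowered peaks 152 to 176, called gene sums 18 to 26, and against Tet2-/- 81 to 96 were raised and 133 to 151 lowered. With names limited to peaks within 10 kb they were 101 and 118, and 103 were lowered against Tet2-/-. The counts in Tet2-/- were less stable. Raised peaks numbered 5 with DESeq2, 5 within 10 kb, 14 with the Xist signal as a covariate, 16 with the replicate block and 3 to 11 without 1 library, and lowered peaks 5 to 14 without 1 library. Called gene sums of Tet2-/- numbered 1 with the Xist covariate (Peg3), 1 with cyclic loess (Gnas), 3 with the replicate block (Gnas, Ndn and Peg3) and 0 to 1 without 1 library (Ndn without WT replicate 4). In Idh1 R132H 1 peak, the Atp10a peak past the gene, was lowered with cyclic loess, library size alone, the 2 groups alone, the Xist covariate and the replicate block, and in Idh2 R140Q there was 0 in every setting. Same-numbered libraries of Idh2 R172K and WT correlated at -0.048 to 0.122 in their deviations and those of Tet2-/- and WT at 0.032 to 0.091, so for these the block is a fit on a shared number only. The cause of these changes was not tested. Of the single peaks under all alternatives 1047 values kept their call, 75 lost it, 13 gained one and 0 reversed. At starts over methylated regions in Idh2 R172K, DESeq2 called 4 raised and 1 lowered, and cyclic loess and library size alone 2 and 2, with a median log2 change of 0.07 and 0.06. Peaks near 1 CPM rest on few counts, 10502052 in all peaks of the shallowest library.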
